A study of Homo sapiens with 24 samples.

Results

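The 41 genes described here encode the machinery that copies the genome and the regulators that switch it on as cells pass from G1 into S phase. They were taken by symbol from a list, which was chosen with earlier results of these data known. All 41 were found among the 25728 gene symbols counted and among the 14588 genes that passed the filter on low counts. They were followed in 3 human acute myeloid leukemia lines described by the series as EVI1-driven: TF-1, an erythroleukemia line that depends on a growth factor, UT-7, a megakaryoblastic line with the same dependence, and UCSD-AML1, a line with a rearrangement at MECOM, the gene of EVI1. Each line was cultured with cyclocreatine at 3 mM or with vehicle over 24 h, and each of the 6 groups holds 4 libraries. Cyclocreatine resembles creatine and can be phosphorylated by creatine kinases. The labels name no genetic change made to any of these cells, and each line is a single established line, so that differences between lines cannot be told apart from differences of origin or culture.

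Library totals ran from 12794998 to 21200662 counts, and no library held fewer than 56581 counts in the 41 genes together. Values are CPM, counts divided by a library size scaled with TMM, and they are compared for 1 gene between groups, since CPM is not divided by gene length. Levels carry the SD over the 4 libraries of a group, and log2 fold changes carry their SE. Of 15 hematopoietic markers, 2 (HBG1 and HBG2) had 0 counts in a group, in cyclocreatine-treated UCSD-AML1 cells, which allows up to 3 counts per library. The 11 markers of stromal, epithelial and lymphoid cells summed to 10.4 to 15.9 CPM with cyclocreatine against 11.2 to 14.0 CPM with vehicle in TF-1, 1.92 to 2.24 against 1.69 to 2.14 in UT-7, and 44.6 to 48.1 against 38.4 to 44.1 in UCSD-AML1. Cyclocreatine replicate 1 of TF-1 stood apart from the other treated TF-1 libraries, at 38.3 on the second principal component of that line against -20.6 to -10.5. Cytosolic ribosomal protein genes took 7.66% to 9.25% of the counts in cyclocreatine-treated TF-1 libraries against 5.70% to 5.94% with vehicle, 6.38% to 6.91% against 5.45% to 5.67% in UT-7 and 6.63% to 6.83% against 5.60% to 5.82% in UCSD-AML1, and the part of this share in the results below was not tested. Whether replicate libraries stem from separate cultures is not stated, so the p-values reflect the spread among these libraries, which may be technical.

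Replication starts at origins that are marked in G1 by the origin recognition complex (ORC), onto which CDC6 and CDT1 load the ring-shaped MCM helicase. At the start of S phase CDC45 and the GINS complex turn this ring into an active helicase, DNA polymerase alpha with its primase lays down primers, and polymerases delta and epsilon extend them on the sliding clamp PCNA. Cyclin E and the E2F transcription factors control this step, and many genes of the machinery are known E2F targets whose RNA is most abundant around the G1/S boundary. In bulk RNA, fewer cells in S phase and less of an RNA per cell cannot be told apart.

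Promoter windows of RefSeq (GRCh38.p14, 250 bases before to 50 bases after each start) were on hand for 34 of the 41 genes. Of these, 6 are printed 5′ to 3′ on the gene's strand, with capitals marking the E2F letters TTTCCCGC, TTTGGCGC, TTTCGCGC or TTTGCCGC on either strand. MCM3, MCM7, PCNA and E2F2 are shown because they fell in UT-7 and hold such letters, SLBP because it fell without them, and RFC5 because it rose in every line. Their windows lie at chr6:52284693-52284992 (MCM3, minus strand), chr7:100101348-100101647 (MCM7, minus strand), chr20:5126573-5126872 (PCNA, minus strand), chr1:23531184-23531483 (E2F2, minus strand), chr4:1712270-1712569 (SLBP, minus strand) and chr12:118016453-118016752 (RFC5, plus strand).
MCM3: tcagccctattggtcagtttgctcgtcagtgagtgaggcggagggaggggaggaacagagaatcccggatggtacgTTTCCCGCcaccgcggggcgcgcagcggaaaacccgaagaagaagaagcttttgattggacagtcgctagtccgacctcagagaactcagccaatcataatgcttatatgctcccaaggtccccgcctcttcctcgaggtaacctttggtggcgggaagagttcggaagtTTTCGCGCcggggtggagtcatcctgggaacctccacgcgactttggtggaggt
MCM7: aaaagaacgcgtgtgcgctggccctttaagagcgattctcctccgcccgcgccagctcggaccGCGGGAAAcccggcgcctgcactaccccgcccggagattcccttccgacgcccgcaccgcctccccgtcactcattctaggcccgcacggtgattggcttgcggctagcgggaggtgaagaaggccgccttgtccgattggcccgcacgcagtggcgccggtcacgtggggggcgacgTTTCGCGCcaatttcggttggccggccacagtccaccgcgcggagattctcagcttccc
PCNA: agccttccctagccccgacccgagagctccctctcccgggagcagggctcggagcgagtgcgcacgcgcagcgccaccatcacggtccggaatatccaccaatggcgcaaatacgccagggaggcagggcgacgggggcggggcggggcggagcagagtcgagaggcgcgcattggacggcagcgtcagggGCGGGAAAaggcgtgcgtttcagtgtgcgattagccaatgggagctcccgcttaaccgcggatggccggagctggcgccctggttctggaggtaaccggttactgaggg
E2F2: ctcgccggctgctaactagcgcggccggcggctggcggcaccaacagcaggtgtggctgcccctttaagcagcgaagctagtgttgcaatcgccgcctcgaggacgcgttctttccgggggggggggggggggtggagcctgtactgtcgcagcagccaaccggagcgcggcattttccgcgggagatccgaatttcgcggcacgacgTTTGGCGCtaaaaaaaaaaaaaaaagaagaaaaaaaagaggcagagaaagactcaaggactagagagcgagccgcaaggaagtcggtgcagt
SLBP: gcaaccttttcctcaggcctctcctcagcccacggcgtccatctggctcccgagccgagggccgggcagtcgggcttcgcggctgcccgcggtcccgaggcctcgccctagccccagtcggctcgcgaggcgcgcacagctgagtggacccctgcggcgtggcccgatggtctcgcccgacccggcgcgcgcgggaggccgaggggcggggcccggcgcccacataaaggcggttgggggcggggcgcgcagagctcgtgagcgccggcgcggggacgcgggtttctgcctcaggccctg
RFC5: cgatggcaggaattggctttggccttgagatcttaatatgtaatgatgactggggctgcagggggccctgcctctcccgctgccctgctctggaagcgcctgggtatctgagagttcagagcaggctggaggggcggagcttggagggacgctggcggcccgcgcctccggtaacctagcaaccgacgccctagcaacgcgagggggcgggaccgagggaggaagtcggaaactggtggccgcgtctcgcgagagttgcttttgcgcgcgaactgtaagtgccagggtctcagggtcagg
Where a gene has several windows the first is printed, and the other windows of MCM7 and PCNA hold no E2F letters. The matches begin 174 and 4 bases before the start in MCM3, 187 and 9 bases before it in MCM7, 59 before it in PCNA and 42 before it in E2F2.

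E2F letters were found in 20 of 43 windows of the 41 genes (46.5%), which belong to 19 of the 34 genes. The share was 29.0% of 62 windows of other replication and G1/S genes, 10.7% of 28 windows of G2/M and mitosis genes and 4.64% of 15347 windows of the genes tested. The CHR letters TTTGAA or TTCGAA, an element known from promoters of G2/M genes, stood in 1 of 43 windows of the 41 genes (2.33%), against 71.4% in the G2/M genes and 11.98% in the genes tested. CCAAT, the core of the NF-Y box, stood in 55.8% of the windows of the 41 genes, 82.1% of those of G2/M genes and 34.4% of those of the genes tested. GGGCGG, the GC box, stood in 74.4% of the windows of the 41 genes and 64.1% of those of the genes tested. It stood in 80.6% of the windows of other replication and G1/S genes and 82.1% of those of G2/M genes. Both strands were searched, matches may overlap each other, and a match is a run of letters and not a measured binding site.

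**Figure D1:**
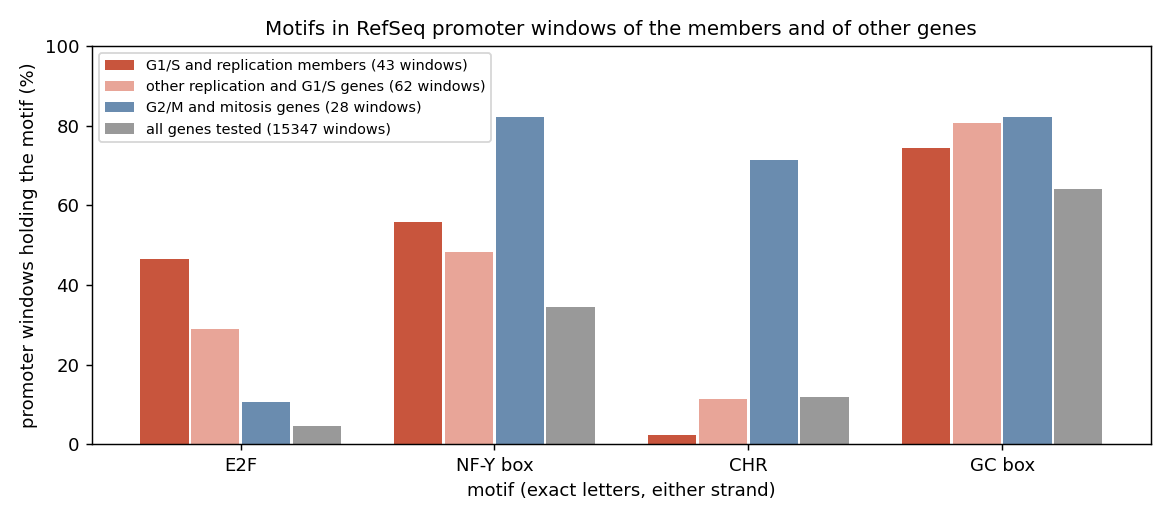
Share of promoter windows (y axis, %) that hold each motif on either strand, for the 41 genes (43 windows), other replication and G1/S genes (62), G2/M and mitosis genes (28) and all genes tested (15347). The E2F bar is highest for the 41 genes at 46.5%, while the CHR bar is highest for the G2/M genes at 71.4%; the NF-Y box stands for CCAAT.

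Under cyclocreatine the 41 genes fell for the most part in UT-7 and split in both directions in TF-1 and UCSD-AML1. In UT-7, 33 of 41 fell, 2 rose and 6 did not pass the test (edgeR, adjusted p under 0.05 over all genes tested), where 23.3% of all tested genes fell and 22.5% rose. In TF-1, 17 rose, 17 fell and 7 did not pass, beside 26.7% and 29.3% of all tested genes. When TF-1 was fitted alone 11 fell, where 3230 of all genes tested in that fit fell, against 4272 in the main fit. Without cyclocreatine replicate 1, 15 rose and 18 fell, beside 3993 and 4326 of all genes tested in that fit. In UCSD-AML1, 13 rose, 13 fell and 15 did not pass, beside 19.1% and 21.3%. The median log2 fold change of the 41 genes was -0.26 in UT-7, 0.01 in TF-1 and -0.02 in UCSD-AML1, while that of all tested genes was 0 in UT-7, -0.01 in TF-1 and -0.0046 in UCSD-AML1. The TF-1 median of the 41 genes was -0.061 without cyclocreatine replicate 1 and 0.047 without replicate 2. With library totals in place of TMM it was -0.073, beside -0.088 for all tested genes. In UT-7 all 4 treated libraries lay below all 4 vehicle libraries for 32 of the 41 genes, where 24.1% of all tested genes did so. That held for 11 genes in TF-1 (21% of all tested) and 13 in UCSD-AML1 (23.1%), and the treated libraries lay above for 14 genes in TF-1 cells (19.3%), 2 in UT-7 (23.3%) and 13 in UCSD-AML1 (21.1%).

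The changes were small in size, with log2 fold changes between -0.90 and 0.66 over the 41 genes and 3 lines. Summed over the 41 genes, the treated UT-7 libraries had 4446, 4363, 4459.6 and 4455 CPM, against 5624, 5601, 5639 and 5585 CPM with vehicle. In TF-1 the sums were 4275, 4102, 4109.9 and 4016 CPM with cyclocreatine, against 4000.4, 4117, 4067 and 4084 CPM with vehicle. In UCSD-AML1 they were 5725, 5787, 5888 and 5845 CPM with cyclocreatine, against 5721, 5780.3, 5861 and 5627 CPM with vehicle. The CPM sums of treated and vehicle libraries did not overlap in UT-7, and they overlapped in TF-1 and UCSD-AML1. As a share of all counts, without TMM, the 41 genes took 0.379% to 0.391% in treated TF-1 libraries against 0.397% to 0.405% with vehicle. These TF-1 shares did not overlap, so the overlap of the TF-1 sums depends on the scaling. The shares were 0.442% to 0.453% against 0.582% to 0.588% in UT-7 and 0.584% to 0.591% against 0.578% to 0.594% in UCSD-AML1. Genes with many counts weigh most in such sums, as MCM3 averaged 556 CPM and GINS3 21.3 CPM in UT-7 with vehicle. With library totals in place of TMM the split of called genes among all tested genes moved in TF-1 to 3001 higher and 5225 lower, against 3901 and 4272 with TMM, while the 41 genes stood at 14 higher and 20 lower.

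**Figure D2:**
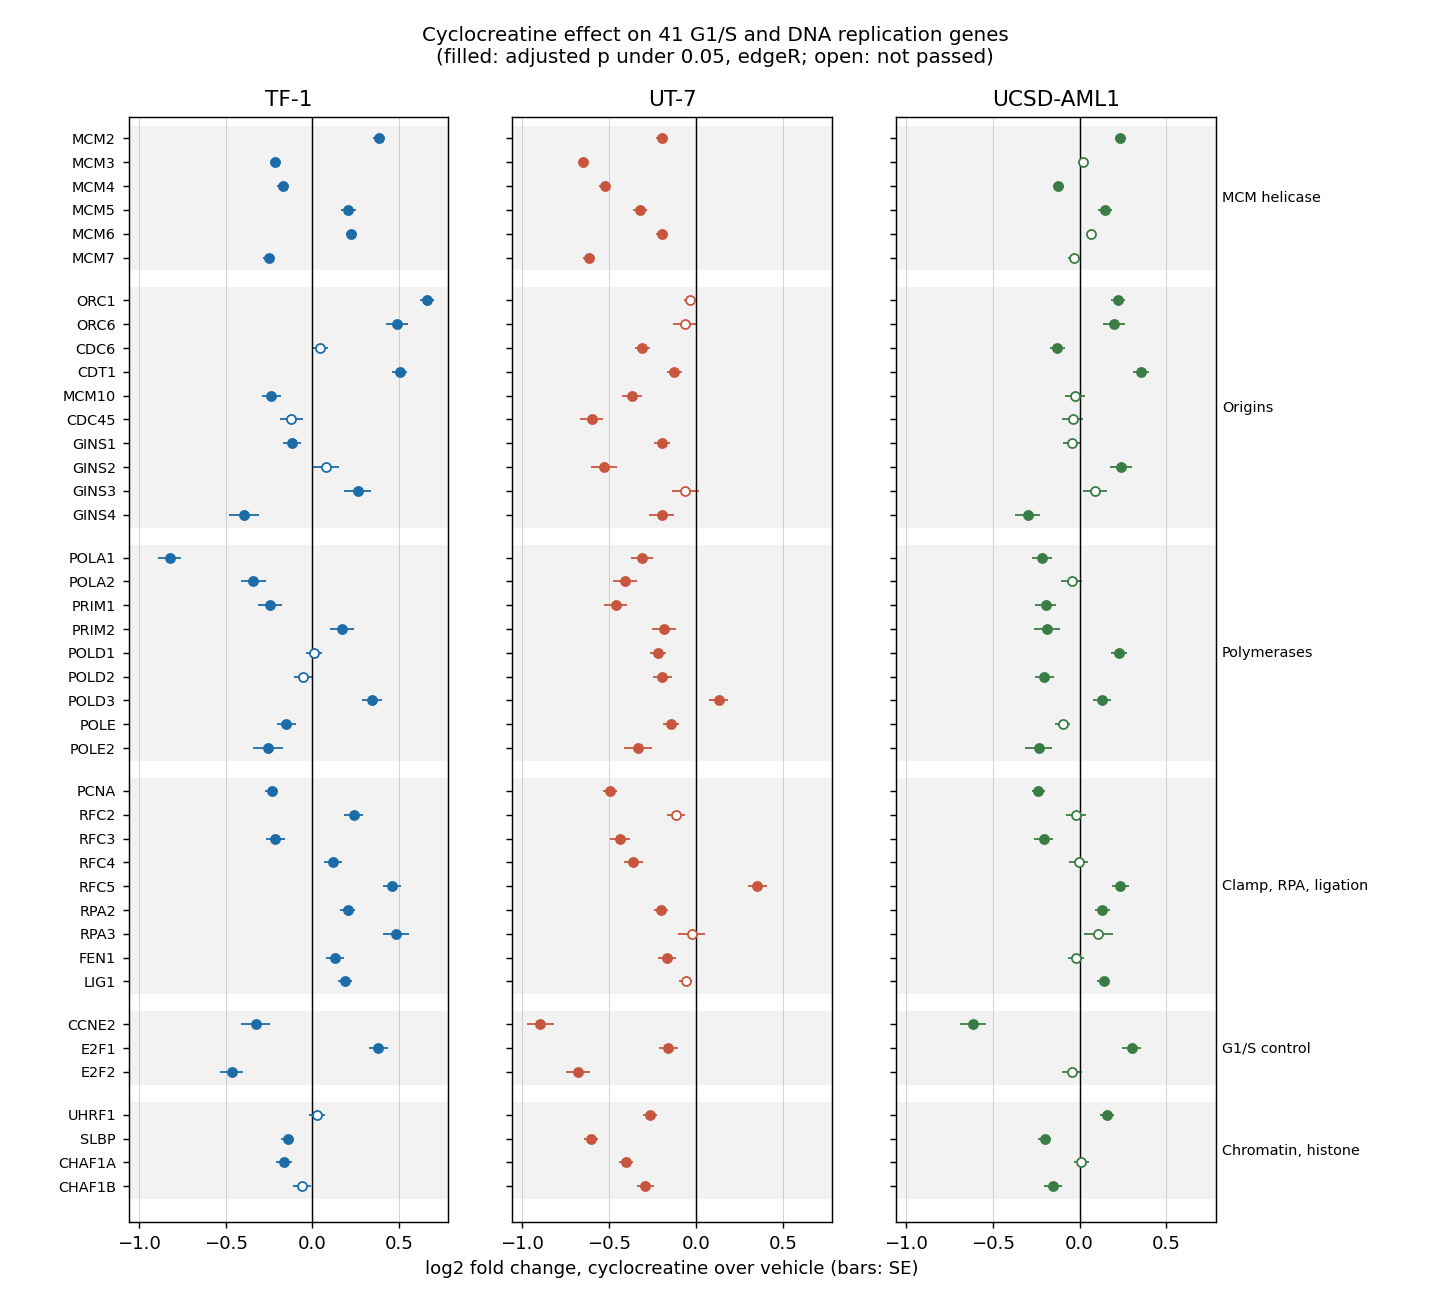
Log2 fold change of each of the 41 genes, cyclocreatine over vehicle (x axis; bars are SE), in TF-1, UT-7 and UCSD-AML1, grouped by role; filled points passed the edgeR test. In UT-7, 33 points lie below 0 and are filled, while in TF-1 and UCSD-AML1 the filled points lie on both sides, 17 higher and 17 lower in TF-1 (11 lower when that line was fitted alone) and 13 and 13 in UCSD-AML1.

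The 6 MCM genes, which encode the subunits of the replicative helicase ring, all fell in UT-7, whereas 3 rose and 3 fell in TF-1. In UCSD-AML1, MCM2 and MCM5 rose, MCM4 fell and the other 3 did not pass. Of all tested genes, 23.3% fell in UT-7, 26.7% rose and 29.3% fell in TF-1, and 19.1% rose and 21.3% fell in UCSD-AML1. MCM3 had 352, 347, 364 and 355 CPM with cyclocreatine, against 556, 545, 565 and 557 CPM with vehicle in UT-7 (log2 fold change -0.65 ± 0.03, edgeR adjusted p = 4.27e-19). Every treated UT-7 library was lower than every vehicle library. In TF-1 MCM3 had 348, 354, 319 and 329 CPM with cyclocreatine, against 382, 398, 388 and 397 CPM with vehicle (log2 fold change -0.21 ± 0.03, edgeR adjusted p = 4.45e-07), also without overlap. In UCSD-AML1 it had 464 ± 5.92 CPM with cyclocreatine and 457 ± 8.94 CPM with vehicle (SD, n = 4 each), a difference that did not pass (log2 fold change 0.02 ± 0.03, edgeR adjusted p = 0.656).

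MCM7 also fell in UT-7 and TF-1. It had 299.9, 289.6, 307 and 307 CPM with cyclocreatine, against 468, 453, 465 and 459 CPM with vehicle in UT-7 (log2 fold change -0.62 ± 0.04, edgeR adjusted p = 4.92e-17) and 258, 227, 224 and 231 CPM with cyclocreatine, against 272, 284, 286 and 278 CPM with vehicle in TF-1 (log2 fold change -0.25 ± 0.04, edgeR adjusted p = 2.2e-07). The treated TF-1 library nearest to the vehicle range was replicate 1, the library that stood apart. In UCSD-AML1 MCM7 averaged 271 ± 5.40 CPM with cyclocreatine and 277 ± 5.67 CPM with vehicle, with overlapping libraries (log2 fold change -0.03 ± 0.04, edgeR adjusted p = 0.546). MCM4 fell in all 3 lines, with 317, 321, 330.1 and 322 CPM with cyclocreatine, against 473, 468, 454 and 462 CPM with vehicle in UT-7 (log2 fold change -0.53 ± 0.03, edgeR adjusted p = 4.73e-16). Its log2 fold changes in the other lines were -0.17 in TF-1 (edgeR adjusted p = 3.46e-05) and -0.12 in UCSD-AML1 (edgeR adjusted p = 0.0024).

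MCM2 rose in TF-1 and UCSD-AML1 and fell in UT-7. It had 305, 311, 313 and 293 CPM with cyclocreatine, against 231, 240.1, 225 and 240.3 CPM with vehicle in TF-1 (log2 fold change 0.38 ± 0.03, edgeR adjusted p = 2.25e-12), and all treated libraries were higher. In UCSD-AML1 it had 484, 495, 513 and 516 CPM with cyclocreatine, against 434, 436, 431 and 406 CPM with vehicle (log2 fold change 0.23 ± 0.03, edgeR adjusted p = 2.87e-07), again with every treated library higher. In UT-7 it had 223, 221, 223 and 225 CPM with cyclocreatine, against 253, 258, 262 and 249 CPM with vehicle (log2 fold change -0.20 ± 0.03, edgeR adjusted p = 8.66e-06), with every treated library lower. MCM5 and MCM6 also rose in TF-1 and fell in UT-7. MCM5 had 159 ± 13.1 CPM with cyclocreatine and 138 ± 7.94 CPM with vehicle in TF-1 (log2 fold change 0.21), 202 ± 1.55 CPM with cyclocreatine and 252 ± 4.72 CPM with vehicle in UT-7 (-0.32) and 476 ± 16.9 CPM with cyclocreatine and 430.3 ± 8.62 CPM with vehicle in UCSD-AML1 (0.14). MCM6 had log2 fold changes of 0.22 in TF-1 and -0.20 in UT-7, and 0.07 in UCSD-AML1, where it did not pass (edgeR adjusted p = 0.0936). Over the 6 subunits of this ring, log2 fold changes ran from -0.25 to 0.38 in TF-1 cells, -0.65 to -0.20 in UT-7 and -0.12 to 0.23 in UCSD-AML1.

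**Figure D3:**
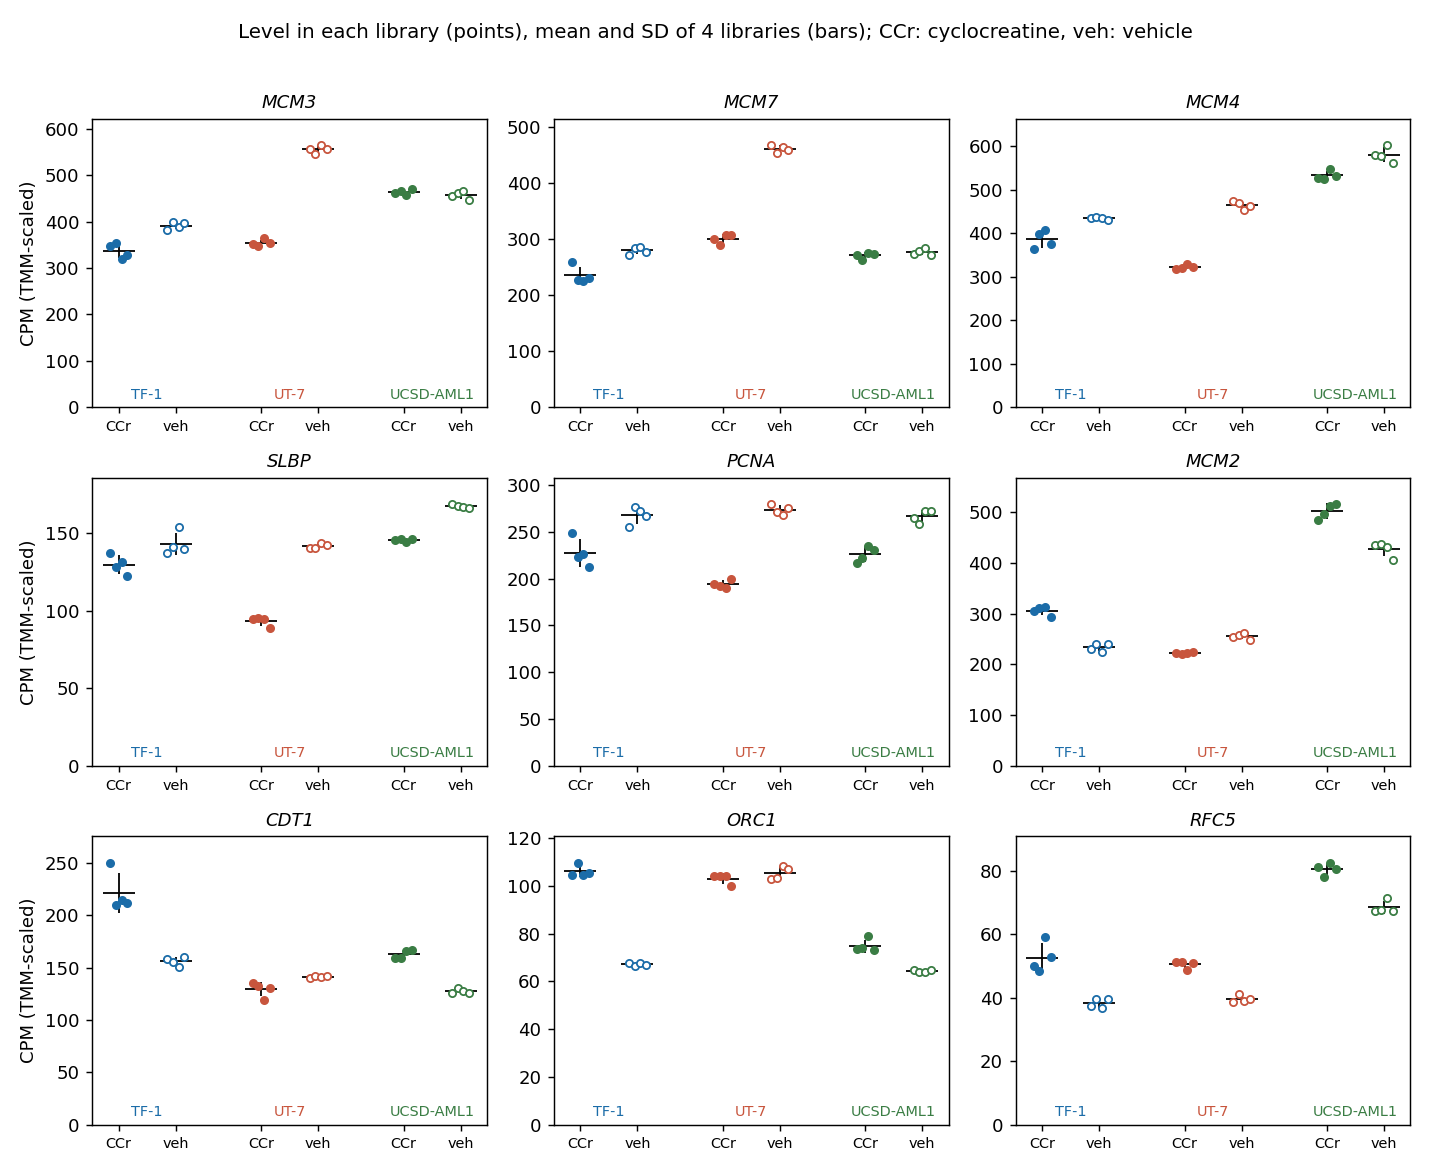
CPM of 9 of the genes in each library (points; y axis from 0), with the mean and SD of 4 libraries, for cyclocreatine (CCr, filled) and vehicle (veh, open) in the 3 lines. MCM3, MCM7, MCM4, SLBP and PCNA are lower in treated UT-7 libraries without overlap, ORC1 and CDT1 are higher in treated TF-1 and UCSD-AML1 libraries, and RFC5 is higher in the treated libraries of all 3 lines.

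The 10 genes of origin licensing and firing fell in UT-7 or did not pass there, and several rose in the other lines. In UT-7, 7 fell and 3 did not pass, where 23.3% of all tested genes fell. In TF-1, 4 rose, 3 fell and 3 did not pass, beside 26.7% and 29.3% of all tested genes that rose and fell. In UCSD-AML1, 4 rose, 2 fell and 4 did not pass, beside 19.1% and 21.3%. ORC1, the ATPase subunit of the origin recognition complex that is made anew in each G1, had 105, 109.7, 105 and 106 CPM with cyclocreatine, against 67.7, 66.3, 67.7 and 67.1 CPM with vehicle in TF-1 (log2 fold change 0.66 ± 0.04, edgeR adjusted p = 6.19e-17). All treated TF-1 libraries stood above all vehicle libraries. In UCSD-AML1 ORC1 had 73.6, 73.8, 78.8 and 73.00 CPM with cyclocreatine, against 64.7, 63.9, 63.9 and 64.6 CPM with vehicle (log2 fold change 0.22 ± 0.04, edgeR adjusted p = 2.98e-05), a smaller rise without overlap. In UT-7 its libraries overlapped, at 103 ± 2.21 CPM with cyclocreatine and 105 ± 2.75 CPM with vehicle (log2 fold change -0.03 ± 0.04, edgeR adjusted p = 0.535).

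CDT1, the loader of the MCM ring that is destroyed once S phase begins, had 250.4, 209.8, 214 and 211 CPM with cyclocreatine, against 158, 156, 151 and 159.9 CPM with vehicle in TF-1 (log2 fold change 0.50 ± 0.04, edgeR adjusted p = 1.94e-12). The highest of these values is that of replicate 1, and the other treated libraries also stood above all vehicle libraries. CDT1 had 159.7, 159, 166 and 167 CPM with cyclocreatine, against 126, 131, 128 and 126 CPM with vehicle in UCSD-AML1 (log2 fold change 0.35 ± 0.04, edgeR adjusted p = 3.88e-08). It fell in UT-7, with 129.7 ± 7.12 CPM with cyclocreatine and 141 ± 0.876 CPM with vehicle (log2 fold change -0.12 ± 0.05, edgeR adjusted p = 0.0231). ORC6, another subunit of the origin recognition complex, rose in TF-1 (log2 fold change 0.49) and UCSD-AML1 (0.20) and did not pass in UT-7 (-0.06). CDC6, which works with CDT1 in loading, fell in UT-7 (-0.31) and in UCSD-AML1 (-0.13), and had a log2 fold change of 0.05 in TF-1 that did not pass.

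Of the genes that activate the loaded helicase, CDC45 had 37.5 ± 1.93 CPM with cyclocreatine and 56.96 ± 2.02 CPM with vehicle in UT-7 (log2 fold change -0.60 ± 0.06, edgeR adjusted p = 5.46e-10) and did not pass in TF-1 (-0.12) or UCSD-AML1 (-0.04). MCM10, an activator of the helicase that is not a subunit of the ring, fell in UT-7 (-0.37) and TF-1 (-0.24). The 4 GINS genes encode 1 complex but did not move alike. GINS4 fell in all 3 lines, with 38.9, 39.4, 38.1 and 36.3 CPM with cyclocreatine, against 48.2, 45.3, 46.8 and 47.4 CPM with vehicle in UCSD-AML1 (log2 fold change -0.30 ± 0.07, edgeR adjusted p = 0.000897) and log2 fold changes of -0.39 in TF-1 and -0.20 in UT-7. GINS2 fell in UT-7 (-0.53), rose in UCSD-AML1 (0.24) and did not pass in TF-1 (0.08). GINS3 rose in TF-1 (0.26) and passed in no other line. GINS1 fell in UT-7 (-0.19) and, at the edge of the threshold, in TF-1 (log2 fold change -0.12 ± 0.05, edgeR adjusted p = 0.0487), a call lost in 21 of 31 alternative fits.

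Of the 9 genes of DNA polymerases and primase, 8 fell and 1 rose in UT-7, beside 23.3% and 22.5% of all tested genes. In TF-1, 5 fell and 2 rose, beside 29.3% and 26.7%, and in UCSD-AML1 5 fell and 2 rose, beside 21.3% and 19.1%. POLA1, the catalytic subunit of polymerase alpha, carried the largest fall of the 41 genes in TF-1, with 24.9, 33.7, 34.6 and 30.1 CPM with cyclocreatine, against 55.8, 49.7, 51.7 and 59.7 CPM with vehicle (log2 fold change -0.82 ± 0.07, edgeR adjusted p = 4.31e-13). All treated TF-1 libraries were lower, and replicate 1 was the lowest. POLA1 had 56.6 ± 3.19 CPM with cyclocreatine and 70.2 ± 2.78 CPM with vehicle in UT-7 (log2 fold change -0.31 ± 0.06, edgeR adjusted p = 9.83e-05) and 93.7 ± 1.34 CPM with cyclocreatine and 109 ± 3.57 CPM with vehicle in UCSD-AML1 (log2 fold change -0.22 ± 0.06, edgeR adjusted p = 0.00286). POLA2, its accessory subunit, fell in TF-1 (-0.34) and UT-7 (-0.41) and had a log2 fold change of -0.05 in UCSD-AML1, where it did not pass.

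PRIM1, the catalytic subunit of primase, fell in all 3 lines, by 0.25 in TF-1 cells, 0.46 in UT-7 and 0.20 in UCSD-AML1 on the log2 scale, with overlapping libraries in TF-1. Its partner PRIM2 passed in all 3 lines near the threshold, higher in TF-1 (log2 fold change 0.17 ± 0.07, edgeR adjusted p = 0.0357) and lower in UT-7 (log2 fold change -0.18 ± 0.07, edgeR adjusted p = 0.029) and UCSD-AML1 (log2 fold change -0.19 ± 0.07, edgeR adjusted p = 0.0379). The PRIM2 libraries overlapped between treatments in every line, and each of these calls was lost in 6 or 7 of 31 alternative fits. POLD3, an accessory subunit of polymerase delta, rose in all 3 lines. It had 58.03, 53.9, 52.6 and 54.4 CPM with cyclocreatine, against 51.2, 49.6, 49.5 and 49.8 CPM with vehicle in UT-7 (log2 fold change 0.13 ± 0.05, edgeR adjusted p = 0.0394). This call was lost in 10 of 31 alternative fits, although every treated library stood above every vehicle library. POLD3 had 35.5 ± 1.46 CPM with cyclocreatine and 28.03 ± 2.10 CPM with vehicle in TF-1 (log2 fold change 0.34 ± 0.06, edgeR adjusted p = 2.22e-06) and 52.9 ± 1.13 CPM with cyclocreatine and 48.4 ± 1.70 CPM with vehicle in UCSD-AML1 (log2 fold change 0.13 ± 0.05, edgeR adjusted p = 0.0409), and the UCSD-AML1 call was also lost in 10 of 31 alternative fits.

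Neither of the other subunits of polymerase delta that were followed rose in all 3 lines. POLD1, the catalytic subunit, fell in UT-7 (-0.22) and rose in UCSD-AML1 (0.23), and POLD2 fell in both, by 0.19 in UT-7 and 0.20 in UCSD-AML1. Neither passed in TF-1, at log2 fold changes of 0.01 and -0.05. Of polymerase epsilon, the leading-strand enzyme, POLE2 fell in all 3 lines (log2 fold changes -0.26 in TF-1 cells, -0.33 in UT-7 and -0.24 in UCSD-AML1). POLE, the catalytic subunit, fell in TF-1 (-0.15) and UT-7 (-0.14) and did not pass in UCSD-AML1 (-0.10, edgeR adjusted p = 0.0785).

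Among the 9 genes of the clamp, its loader, single-strand DNA binding and flap ligation, 7 rose and 2 fell in TF-1, 1 rose and 5 fell in UT-7, and 3 rose and 2 fell in UCSD-AML1. All tested genes rose and fell in 26.7% and 29.3% of cases in TF-1, 22.5% and 23.3% in UT-7 and 19.1% and 21.3% in UCSD-AML1. PCNA, the sliding clamp that holds polymerases on DNA, fell in all 3 lines. It had 217, 222, 235 and 231 CPM with cyclocreatine, against 264, 259, 272 and 272 CPM with vehicle in UCSD-AML1 (log2 fold change -0.24 ± 0.04, edgeR adjusted p = 4e-06). It had 195, 192, 189.9 and 199.9 CPM with cyclocreatine, against 279.8, 271, 268 and 275 CPM with vehicle in UT-7 (log2 fold change -0.49 ± 0.04, edgeR adjusted p = 2.47e-13). In TF-1 it had 248, 223, 226 and 212 CPM with cyclocreatine, against 255, 276, 272 and 266 CPM with vehicle (log2 fold change -0.24 ± 0.04, edgeR adjusted p = 2.2e-06). No treated PCNA value reached the vehicle range of its line, and the nearest was that of TF-1 replicate 1.

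The clamp loader genes split. RFC5 rose in all 3 lines, with 50.1, 48.4, 59.1 and 52.9 CPM with cyclocreatine, against 37.3, 39.6, 36.9 and 39.5 CPM with vehicle in TF-1 (log2 fold change 0.46 ± 0.05, edgeR adjusted p = 2.03e-09) and 51.3, 51.3, 48.9 and 50.9 CPM with cyclocreatine, against 38.8, 41.05, 38.96 and 39.7 CPM with vehicle in UT-7 (log2 fold change 0.35 ± 0.05, edgeR adjusted p = 9.85e-07). In UCSD-AML1 RFC5 had 80.6 ± 1.84 CPM with cyclocreatine and 68.4 ± 2.02 CPM with vehicle (log2 fold change 0.24 ± 0.05, edgeR adjusted p = 0.000153). RFC3 fell in all 3 lines, by 0.21 in TF-1 cells, 0.44 in UT-7 and 0.20 in UCSD-AML1 on the log2 scale. RFC2 and RFC4 rose in TF-1 (log2 fold changes 0.24 and 0.12), and RFC4 fell in UT-7 (-0.36), while RFC2 did not pass there (-0.11). The TF-1 call of RFC4 was lost in 11 of 31 alternative fits.

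RPA2, a subunit of the protein that coats single-stranded DNA, rose in TF-1 (136 ± 9.24 CPM with cyclocreatine and 118 ± 3.73 CPM with vehicle) and UCSD-AML1 (109 ± 3.91 CPM with cyclocreatine and 99.2 ± 1.82 CPM with vehicle) and fell in UT-7 (156 ± 5.82 CPM with cyclocreatine and 179 ± 4.48 CPM with vehicle). RPA3, the smallest subunit, rose in TF-1 (log2 fold change 0.48 ± 0.07, edgeR adjusted p = 8.73e-07) and did not pass in UT-7 (-0.03) or UCSD-AML1 (0.11). LIG1, the ligase that joins lagging-strand fragments, rose in TF-1 (0.19) and UCSD-AML1 (0.14). FEN1, the nuclease that trims their flaps, fell in UT-7 (-0.17) and rose in TF-1 (0.13), a TF-1 call lost in 9 of 31 alternative fits.

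All 3 regulators of the G1/S step fell in UT-7, where 23.3% of all tested genes fell. CCNE2, which encodes cyclin E2, the partner of CDK2, carried the largest change of any of the 41 genes there, with 22.7, 21.4, 19.4 and 21.8 CPM with cyclocreatine, against 39.4, 39.7, 39.3 and 40.4 CPM with vehicle (log2 fold change -0.90 ± 0.08, edgeR adjusted p = 2.67e-12). It had 27.4, 23.9, 26.5 and 22.5 CPM with cyclocreatine, against 37.8, 38.7, 40.6 and 36.2 CPM with vehicle in UCSD-AML1 (log2 fold change -0.61 ± 0.07, edgeR adjusted p = 1.81e-08). In TF-1 it had 12.3, 17.5, 15.1 and 17.3 CPM with cyclocreatine, against 19.8, 20.2, 18.8 and 19.5 CPM with vehicle (log2 fold change -0.33 ± 0.08, edgeR adjusted p = 0.00118). The treated libraries were lower in every line, and in TF-1 replicate 1 was the lowest.

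E2F1 and E2F2, transcription factors that activate S phase genes, went different ways. E2F1 had 61.7, 64.8, 62.9 and 60.2 CPM with cyclocreatine, against 50.3, 51.4, 49.5 and 51.7 CPM with vehicle in UCSD-AML1 (log2 fold change 0.30 ± 0.05, edgeR adjusted p = 1.75e-05) and 69.2 ± 5.69 CPM with cyclocreatine and 53.3 ± 2.83 CPM with vehicle in TF-1 (log2 fold change 0.38 ± 0.05, edgeR adjusted p = 1e-07). It fell in UT-7, with 52.98 ± 2.91 CPM with cyclocreatine and 59.2 ± 1.21 CPM with vehicle (log2 fold change -0.16 ± 0.05, edgeR adjusted p = 0.0146). E2F2 had 21.8, 20.3, 19.3 and 23.7 CPM with cyclocreatine, against 28.05, 29.8, 29.6 and 30.5 CPM with vehicle in TF-1 (log2 fold change -0.46 ± 0.07, edgeR adjusted p = 1.72e-07) and 16.5 ± 0.591 CPM with cyclocreatine and 26.4 ± 1.03 CPM with vehicle in UT-7 (log2 fold change -0.68 ± 0.07, edgeR adjusted p = 3.62e-10). In TF-1 the pair thus moved in opposite directions, and in UCSD-AML1 E2F2 did not pass (-0.04).

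The 4 genes of chromatin and histone supply all fell in UT-7, where 23.3% of all tested genes fell. SLBP, which binds the stem-loop of histone messages and is made for S phase, had 94.3, 95.2, 94.4 and 88.6 CPM with cyclocreatine, against 140.2, 139.9, 143 and 142 CPM with vehicle in UT-7 (log2 fold change -0.60 ± 0.04, edgeR adjusted p = 2.23e-15). It had 145, 146, 144 and 146 CPM with cyclocreatine, against 169, 167, 167 and 166 CPM with vehicle in UCSD-AML1 (log2 fold change -0.20 ± 0.04, edgeR adjusted p = 4.68e-05), and 129 ± 6.09 CPM with cyclocreatine and 143 ± 7.35 CPM with vehicle in TF-1 (log2 fold change -0.14 ± 0.04, edgeR adjusted p = 0.00197). CHAF1A and CHAF1B, subunits of the chromatin assembly factor that places histones behind the fork, fell in UT-7 by 0.40 and 0.29 on the log2 scale. CHAF1A also fell in TF-1 (-0.16) and CHAF1B in UCSD-AML1 (-0.15). UHRF1, which brings DNA methylation to newly copied strands, fell in UT-7 (266 ± 10.9 CPM with cyclocreatine and 319 ± 8.61 CPM with vehicle), rose in UCSD-AML1 (170.3 ± 3.54 CPM with cyclocreatine and 153 ± 9.29 CPM with vehicle) and did not pass in TF-1 (0.03).

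Across lines, 9 of the 41 genes fell in all 3 (MCM4, GINS4, POLA1, PRIM1, POLE2, PCNA, RFC3, CCNE2 and SLBP) and 2 rose in all 3 (RFC5 and POLD3). In TF-1 the treated and vehicle libraries of PRIM1, POLE2 and RFC3 overlapped, and the POLE2 call there was lost in 3 of 31 alternative fits. Another 9 rose in TF-1 and fell in UT-7, and 8 fell in UT-7 and rose in UCSD-AML1. The share of all tested genes with each of these patterns was not counted. Whether the patterns are particular to the 41 genes therefore cannot be read from these counts. Of the 19 genes with E2F letters in a promoter window, 17 fell in UT-7, with a median log2 fold change of -0.31. Of the 15 whose windows hold none, 11 fell and 1 rose there, with a median of -0.22. In TF-1, 10 of the 19 fell and 6 rose (median -0.12), and of the 15, 4 fell and 7 rose (median 0.01). In UCSD-AML1, 5 of the 19 fell and 6 rose (median -0.03), and of the 15, 5 fell and 4 rose (median -0.02). These counts describe the genes, and no test was run between the 19 and the 15. Of all tested genes, 23.3% fell and 22.5% rose in UT-7, 29.3% and 26.7% in TF-1 and 21.3% and 19.1% in UCSD-AML1.

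The test of the difference between lines asks whether a gene responded differently to cyclocreatine. Between TF-1 and UT-7 the response differed for 31 of 41 genes, where 27.5% of all tested genes passed. It was higher in TF-1 for 30 of them and lower for 1, POLA1, beside 14.3% and 13.2% of all tested genes. ORC1 (0.69 ± 0.06, edgeR adjusted p = 4.93e-12) and MCM2 (0.58 ± 0.05, edgeR adjusted p = 1e-11) had the smallest p-values of this comparison. All 6 MCM genes passed, with differences of 0.36 to 0.58 on the log2 scale. POLA1 differed by -0.51 (edgeR adjusted p = 5.48e-05) and fell further in TF-1. RFC5 (0.10 ± 0.08) and POLE (-0.01 ± 0.07, SE) were among the 10 that did not pass.

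The response in UT-7 was lower than that in UCSD-AML1 for 26 of 41 genes, where 23% of all tested genes passed in either direction and 11.5% in this direction. The count in the other direction was 0 with edgeR, DESeq2 and limma-voom, and 0 at an unadjusted p under 0.05 in edgeR. Differences of more than 0.5 in size were those of MCM3 (-0.67 ± 0.05, edgeR adjusted p = 3.81e-14), MCM7 (-0.58 ± 0.05, edgeR adjusted p = 1.79e-11), GINS2 (-0.77 ± 0.10, edgeR adjusted p = 1.39e-07), E2F2 (-0.64 ± 0.09, edgeR adjusted p = 1.61e-06) and CDC45 (-0.56 ± 0.09, edgeR adjusted p = 6.43e-06). CCNE2, the gene with the deepest fall in both of these lines, did not pass (-0.29 ± 0.11, edgeR adjusted p = 0.0514). Between TF-1 and UCSD-AML1 the response was higher in TF-1 for 10 genes and lower for 8, 18 in all, beside 14.8%, 14.3% and 29.1% of all tested genes. With library totals alone these counts were 3 and 10, beside 1329 and 2766 of all tested genes in place of 2156 and 2086. ORC1 rose further in TF-1 (0.44 ± 0.06, edgeR adjusted p = 1.23e-07), while MCM3 (-0.23 ± 0.05, edgeR adjusted p = 0.000102) and E2F2 (-0.42 ± 0.09, edgeR adjusted p = 0.00034) were lower there. PCNA fell by 0.24 on the log2 scale in both of these lines, and the SE of the difference was 0.05. Each pair of these comparisons shares the libraries of 1 line, so their counts are not independent.

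The lines were also compared with each other in their vehicle libraries, taken at 24 h. There, TF-1 was lower than UT-7 for 30 of 41 genes and higher for 6, beside 38.7% and 41% of all tested genes. With library totals alone, 3 genes were higher, beside 5557 of all tested genes in place of 5984. TF-1 was lower than UCSD-AML1 for 26 and higher for 10, beside 43.3% and 40.6%. UT-7 was higher than UCSD-AML1 for 19 and lower for 17, beside 40% and 41.5%. TF-1 had the lowest mean of the 3 lines for 23 of the 41 genes, UCSD-AML1 for 13 and UT-7 for 5. These ranks include differences that did not pass, such as those of PCNA, and they were not counted over all tested genes.

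POLE had the widest range, with 56.4, 52.2, 52.3 and 50.9 CPM in TF-1, 168, 177, 180.2 and 173 CPM in UT-7 and 427, 435, 419 and 418 CPM in UCSD-AML1. Neighbours in that order did not overlap, and TF-1 over UCSD-AML1 gave a log2 fold change of -3.00 (edgeR adjusted p = 9.55e-37). MCM5 ran in the same order, at 138 ± 7.94 CPM in TF-1 cells, 252 ± 4.72 in UT-7 and 430.3 ± 8.62 in UCSD-AML1. UHRF1 and CHAF1A were highest in UT-7. UHRF1 had 68.05, 66.6, 61.01 and 64.9 CPM in TF-1, 326, 324, 319.8 and 307 CPM in UT-7 and 148, 158, 163 and 142 CPM in UCSD-AML1. CHAF1A averaged 50.2 ± 1.11 CPM in TF-1 cells, 245 ± 1.77 in UT-7 and 117 ± 4.80 in UCSD-AML1, and TF-1 over UT-7 gave a log2 fold change of -2.28 (edgeR adjusted p = 2.54e-34). GINS1 and RPA2 were also highest in UT-7, while POLA2 was highest in UCSD-AML1. PCNA, in contrast, averaged 267 ± 9.09 CPM in TF-1 cells, 273 ± 5.26 in UT-7 and 267 ± 6.40 in UCSD-AML1, and none of its 3 comparisons passed (edgeR adjusted p 0.379 to 0.916).

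**Figure D4:**
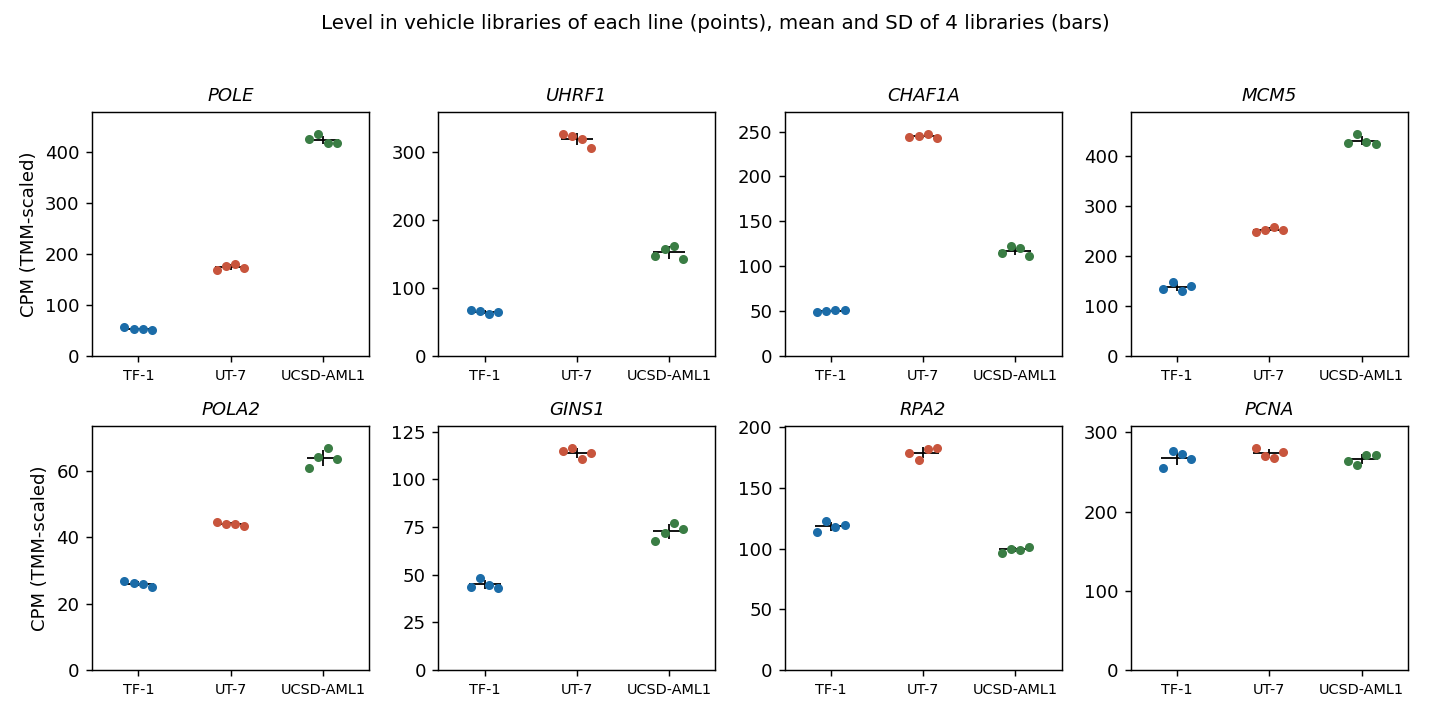
CPM of 8 of the genes in the 4 vehicle libraries of each line (points; y axis from 0), with mean and SD. POLE, MCM5 and POLA2 are lowest in TF-1 and highest in UCSD-AML1, UHRF1, CHAF1A, GINS1 and RPA2 are highest in UT-7, and the PCNA libraries of the 3 lines overlap.

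A further 53 genes of replication, nucleotide supply and G1/S control were counted beside the 41. In UT-7, 33 of these 53 fell and 6 rose, beside 23.3% and 22.5% of all tested genes. In TF-1, 12 fell and 22 rose, beside 29.3% and 26.7%, and in UCSD-AML1, 18 fell and 9 rose, beside 21.3% and 19.1%. Of the 6 genes of deoxynucleotide supply, 5 fell in UT-7, among them RRM2, the regulated subunit of ribonucleotide reductase (log2 fold change -0.58 ± 0.04, edgeR adjusted p = 1.36e-13). TYMS, thymidylate synthase, rose in TF-1 (log2 fold change 0.34 ± 0.04, edgeR adjusted p = 2.05e-09) and in UCSD-AML1 (log2 fold change 0.41 ± 0.04, edgeR adjusted p = 9.23e-12). Among 11 further genes of G1/S control, 8 fell in UT-7, among them CDK2, the kinase that cyclin E2 activates (log2 fold change -0.35 ± 0.04, edgeR adjusted p = 2.91e-09). RBL1, a pocket protein that holds E2F factors, fell in TF-1, UT-7 and UCSD-AML1, by 0.37, 0.45 and 0.60 on the log2 scale.

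Of 16 further genes of the fork, 10 fell and 2 rose in UT-7, 2 fell and 5 rose in TF-1, and 5 fell and 3 rose in UCSD-AML1, where all tested genes fell and rose in 23.3% and 22.5% of cases in UT-7, 29.3% and 26.7% in TF-1 and 21.3% and 19.1% in UCSD-AML1. CHTF18, the large subunit of an alternative clamp loader that shares the small RFC subunits, rose in all 3 lines (log2 fold change 0.73 ± 0.06, edgeR adjusted p = 4.32e-13 in TF-1, log2 fold change 0.49 ± 0.06, edgeR adjusted p = 4.5e-09 in UT-7 and log2 fold change 0.82 ± 0.06, edgeR adjusted p = 4.19e-14 in UCSD-AML1). WDHD1, which ties polymerase alpha to the helicase, fell in UT-7 (log2 fold change -0.47 ± 0.05, edgeR adjusted p = 7.88e-10). Of 12 further licensing and firing genes, 6 fell and 2 rose in UT-7, 3 fell and 7 rose in TF-1, and 3 fell and 1 rose in UCSD-AML1. ORC3 fell in all 3 lines (log2 fold changes -0.28 in TF-1 cells, -0.39 in UT-7 and -0.26 in UCSD-AML1). GMNN, the inhibitor of CDT1, fell in UT-7 (log2 fold change -0.36 ± 0.04, edgeR adjusted p = 2.33e-08) and in UCSD-AML1 (log2 fold change -0.17 ± 0.04, edgeR adjusted p = 0.00154). Of 8 genes of chromatin copying and turnover, 4 fell and 2 rose in UT-7, 2 fell and 4 rose in TF-1, and 3 fell and 2 rose in UCSD-AML1. DNMT1, which copies DNA methylation and which UHRF1 brings to the fork, rose in all 3 lines, with 1233 ± 12.9 CPM with cyclocreatine and 1066 ± 8.69 CPM with vehicle in UT-7 (log2 fold change 0.21 ± 0.03, edgeR adjusted p = 7.41e-07), where UHRF1 fell.

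The 30 genes of G2/M and mitosis, which act after replication, moved the other way from the 41 genes in UT-7. There, 24 of the 30 rose and 1 fell, beside 22.5% and 23.3% of all tested genes, with a median log2 fold change of 0.23. CCNB1, cyclin B1 of the mitotic kinase, had 252 ± 13.1 CPM with cyclocreatine and 183 ± 1.64 CPM with vehicle in UT-7 (log2 fold change 0.46 ± 0.04, edgeR adjusted p = 2.91e-12). KIF2C, a mitotic kinesin, rose by 0.40 and PRC1, which bundles microtubules of the late spindle, by 0.36 on the log2 scale. In TF-1, 17 of the 30 rose and 4 fell, beside 26.7% and 29.3% of all tested genes, and CENPE, a kinesin of the kinetochore, was among those that fell (log2 fold change -1.02 ± 0.07, edgeR adjusted p = 9.05e-15). In UCSD-AML1, 4 rose and 12 fell, beside 19.1% and 21.3% of all tested genes, and FOXM1, a transcription factor of mitotic genes, was among those that rose (log2 fold change 0.51 ± 0.04, edgeR adjusted p = 5.49e-13). The median log2 fold change of the 30 genes was 0.12 in TF-1 and -0.09 in UCSD-AML1.

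**Figure D5:**
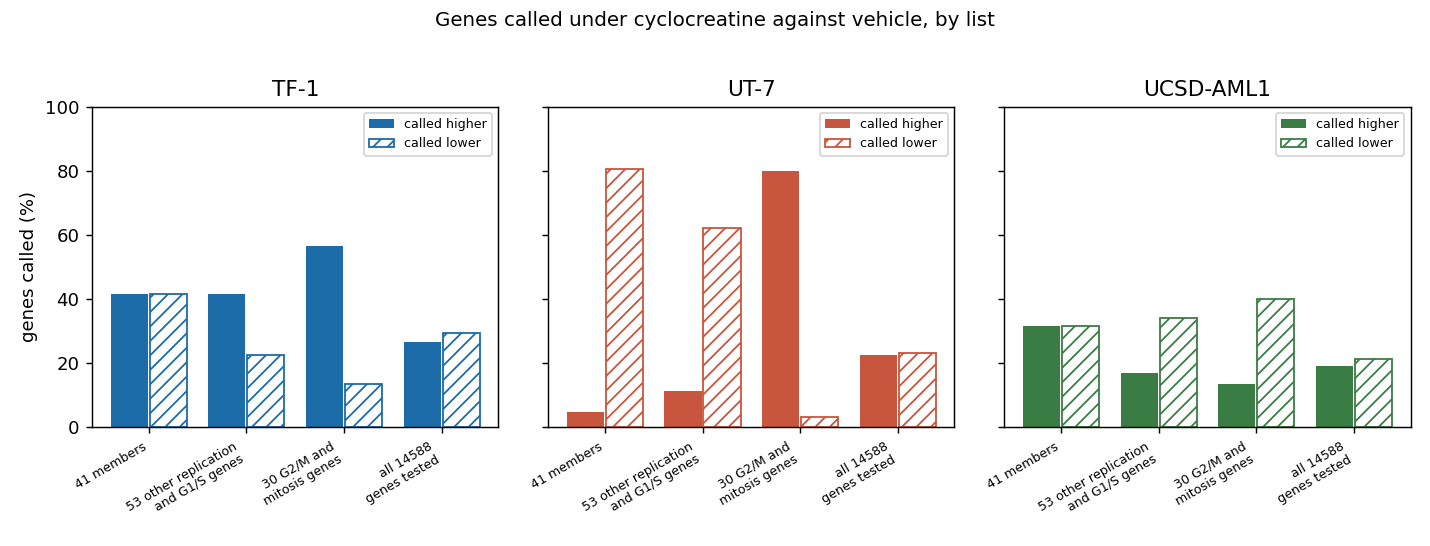
Share of genes that rose (filled) and fell (hatched) under cyclocreatine (y axis, %; edgeR, adjusted p under 0.05) in each line, for the 41 genes, the 53 other replication and G1/S genes, the 30 G2/M and mitosis genes and all 14588 genes tested. In UT-7, 33 of the 41 genes fell and 24 of the 30 G2/M genes rose; of those 30, 17 rose in TF-1 and 4 in UCSD-AML1.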

How the data were processed

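Per the labels, RNA came from an RNeasy Kit and was sequenced on a HiSeq instrument. The deposited files hold whole-number counts per RefSeq gene symbol, 1 file per library, made by the authors from their reads. FastQC, TopHat2 and RSEM and the builds GRCh37 and hg19 appear in the submitters' processing notes. Versions, order and strand use were not given in the sources used here, so overlapping, antisense and near-identical genes are uncertain. Libraries were grouped by their labels, and no 2 libraries of a group agreed within sampling noise (chi-square per degree of freedom at least 1.29 in the 36 pairs within groups).

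Counts were filtered with filterByExpr (minimum count 10, total 15; 14588 genes, at least 99.934% of counts), scaled by TMM and fitted with edgeR 4.0.16 in R 4.3.3 as 1 group-means model over 24 libraries (robust quasi-likelihood, 18 residual degrees of freedom, median biological coefficient of variation 0.0578). Tests were two-sided with Benjamini-Hochberg adjustment over all genes, called under 0.05. The scripts were tested on simulated data. The lowest and highest library totals were 12794998 and 21200662 counts. Alternatives were DESeq2 1.42.0, limma-voom 3.58.1, other scalings, no filter, a replicate block, each line fitted alone, and each library left out. Promoter windows are from RefSeq (GRCh38.p14), searched in Python 3.11.15; 7 of the 41 genes had no window in the table.

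The 41 genes and the other lists were chosen with earlier results of these data known. Values in every library are given, in the text or as points in a figure, for genes picked by fixed rules. These are the 4 called genes with the smallest p per line and direction and the 4 with the smallest p in the differences between lines. The 4 with the largest baseline difference per pair of lines were also picked. Of these baseline genes, the text prints vehicle values of every library for POLE and UHRF1 only. From the other lists, up to 3 called genes per list and line with the smallest p were eligible to be named. Where such a gene is named for several lines, only some of its lines print library values. One gene of the other lists is not reported here.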

Additional observations from a re-analysis of the deposited data

Results flagged for a closer look

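In 14 of 246 sets of 4 libraries (1 gene in 1 group), 1 library lay far from the other 3, by a gap above Dixon's critical value for sets of this size; chance gives about 1 such set in 20. In TF-1 these were CDT1 with cyclocreatine (250 CPM in replicate 1, against 210 to 214 in the others), and with vehicle RFC2 (46.8 CPM in replicate 2), RFC4 (72.3 CPM in replicate 1) and FEN1 (85.5 CPM in replicate 2). In UT-7 they were ORC1 (99.7 CPM) and SLBP (88.6 CPM), both low in cyclocreatine replicate 4, and PRIM2 with vehicle (42.7 CPM in replicate 3). In UCSD-AML1 with cyclocreatine they were MCM5 (450.7 CPM in replicate 1), ORC1 (78.8 CPM in replicate 3), POLD3 (54.6 CPM in replicate 2) and RPA3 (17.1 CPM in replicate 1). In UCSD-AML1 with vehicle they were GINS3 (35.0 CPM in replicate 3), RFC5 (71.5 CPM in replicate 3) and FEN1 (144.9 CPM in replicate 4).

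By the edgeR test of the difference itself, the response to cyclocreatine differed between TF-1 and UT-7 for 31 of the 41 genes, beside 27.5% of all tested genes. It differed for 18 between TF-1 and UCSD-AML1, beside 29.1%, and for 26 between UT-7 and UCSD-AML1, beside 23%. Some of the 41 genes that differed rose in 1 line and fell in the other. For TF-1 minus UT-7 the log2 differences of such genes were 0.58 for MCM2, 0.53 for MCM5, 0.42 for MCM6, 0.63 for CDT1, 0.35 for PRIM2, 0.48 for RFC4, 0.41 for RPA2, 0.30 for FEN1 and 0.54 for E2F1. PRIM2 also differed between TF-1 and UCSD-AML1, by 0.36. For UT-7 minus UCSD-AML1 the differences were -0.43 for MCM2, -0.47 for MCM5, -0.48 for CDT1, -0.77 for GINS2, -0.45 for POLD1, -0.33 for RPA2, -0.46 for E2F1 and -0.42 for UHRF1.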

How the results depend on the processing

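Under 31 alternatives, the 3 treatment effects of the 41 genes kept their side of the threshold in 1208 of 1271 gene-by-alternative results in TF-1 cells, 1243 in UT-7 and 1244 in UCSD-AML1, and no called result changed sign. The 31 include fits that left out a library of another line, which hardly moved a line's own estimates. The UT-7 median of the 41 genes was -0.263 without TF-1 vehicle replicate 1, against -0.262. Such fits are a weak check, here and where calls are counted as lost in alternative fits. In TF-1, 11 genes fell when the line was fitted alone, against 17. Of all genes tested in that fit 3230 fell and 3158 rose, against 4272 and 3901, and the cause was not tested. In UT-7 the count that rose was 1, against 2, with DESeq2 size factors, library totals alone, no filter on low counts and the replicate block, because POLD3 no longer passed. It was 1 to 2 over the fits that each left out 1 library, and 1 without UT-7 vehicle replicate 2, 3 or 4 or UT-7 cyclocreatine replicate 1, 2 or 4. With library totals alone, 3 genes responded more highly in TF-1 than in UCSD-AML1, against 10, and the median difference of all genes moved by -0.072. In vehicle libraries, 3 then stood higher in TF-1 than in UT-7, against 6, and the median of all genes moved by -0.064. The median treatment effect of all genes in TF-1 moved by -0.079. Leaving out 1 library at a time, the genes that fell numbered 16 to 18 in TF-1 cells, 30 to 34 in UT-7 and 11 to 14 in UCSD-AML1, and those that rose 14 to 17 in TF-1 and 11 to 14 in UCSD-AML1. Deviations of libraries with the same replicate number correlated by -0.048 to 0.072, so the numbers were not read as pairs, and only 2 UCSD-AML1 libraries correlated best with their own number; with the replicate block, 33 genes fell in UT-7, 16 in TF-1 and 12 in UCSD-AML1. The SEs of the log2 fold changes ran from 0.03 to 0.09, and how far depth sets them was not tested.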
